A study of Mus musculus with 6 samples.

Results

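The genes described here are 30 published targets of miR-124, taken by symbol from the gene table of the deposited count matrices, and all 30 were found among its 27998 genes. They were followed in cultured mouse Müller glia, the radial glia of the retina, in 6 single-cell RNA libraries, 1 for each treatment. Cultures were grown from papain-dissociated retinas in serum medium with EGF and transfected by Lipofectamine with control miRNA mimic and antagomiR (the control library), with a mimic of miR-25 or of miR-124, with let-7 antagomiR, which blocks let-7 miRNAs, with let-7 antagomiR plus miR-25 mimic (the double library), or with all 3 RNAs (the triple library). The final concentration was 500 nM for every RNA. The labels give no strain, genotype, age or time after transfection. With 1 library per treatment no difference below has a replicate check, and every interval covers counting error only.

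miR-124 is the most abundant miRNA of the mature nervous system and is nearly absent from glia. A miRNA guides Argonaute to sites in the 3′ UTR of an mRNA that pair with its seed, and the mRNA is then destabilised or translated less. Added to non-neuronal cells, miR-124 is known to lower many transcripts of the non-neuronal programme: parts of the REST machinery that keeps neuronal genes silent, chromatin subunits that neurons exchange for neuronal ones, and genes of adhesion, the cytoskeleton and membrane traffic. The 30 genes are published as its targets, and need not all respond in Müller glia.

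Of the cells kept, 1350 in the control, 1621 with the let-7 antagomiR, 3126 with the miR-25 mimic, 1392 in the double, 1311 in the miR-124-labelled and 2312 in the triple-labelled library were Müller-like by their marker genes, and 3773633 to 12113860 UMIs (unique RNA molecules counted) were summed over them per library. All 20 Müller glia markers had UMIs in each library. The matrix of the double library was read only in part, 3014 of its 5141 barcodes. Between 73 and 123 kept barcodes per library also occurred in another library. Müller-like cells fell into 3 clusters, called here by a leading gene, and the mix of clusters differed. In the Car14-led cluster lay 750 Müller-like cells from the miR-124-labelled and 1760 from the triple-labelled library, but 8 to 47 from each of the other 4. The Lcn2-led and Grem1-led clusters held most Müller-like cells of those 4. In the same cells the summed level of 9 pericyte or smooth muscle markers was 1991 and 1174 CPM in the miR-124-labelled and triple-labelled libraries, against 3582 to 6145 CPM in the others, with Kcnj8 at 0 in all but the triple-labelled library. CPM is the number of UMIs of a gene per 1000000 UMIs summed. The 6 astrocyte markers stood at 541 and 1192 CPM against 77.0 to 151 CPM, with Igsf1 at 0 in 5 of the 6 libraries. The part of cluster mix and of these markers in the results below was not tested beyond the values within clusters.

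The seeds of the other transfected RNAs served to check the labels and to find members that those RNAs could touch. Mature sequences from RefSeq (GRCm38.p6) are printed with the seed, bases 2 to 8, in capitals.
let-7a-5p: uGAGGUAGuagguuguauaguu
miR-25-3p: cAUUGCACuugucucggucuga
The let-7 family shares 1 seed, and the 3p arm of miR-25 was assumed, since the labels name no arm. The letters pairing with these seeds, CTACCTC for let-7 and GTGCAAT for miR-25, were searched on the sense strand in the longest annotated 3′ UTR of each gene (GENCODE M21, GRCm38). The let-7 letters occurred in 2 of 30 members and in 9.0% of 20755 genes. The miR-25 letters occurred in 3 of 30 members and in 6.55% of genes. The let-7 matches lay in Ezh2 (chr6:47530528-47530534, minus strand) and Tom1l1 (chr11:90643930-90643937, minus strand, an 8-letter match), and the miR-25 matches in Ctnnd1 (chr2:84601394-84601400, minus strand), Usp14 and Cebpa. The first 3 are shown with their flanks and the matching letters in capitals. The match in Ezh2 begins at base 7 of its 3′ UTR, which leaves a short left flank.
Ezh2: catctaCTACCTCttccccttctc
Tom1l1: ccggctggcctCTACCTCAcggccctgctc
Ctnnd1: ctactatgtggGTGCAATtttttttaaac
A match of letters is a description and not a shown site. The remaining 25 members had neither.

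Against control, in Müller-like cells, genes with a let-7 match had log2 ratios higher than other genes of like UTR length by 0.096 with let-7 antagomiR, 0.13 in the double library and 0.081 in the triple-labelled library. The same difference was 0.14 in the miR-124-labelled library, whose label names no let-7 inhibitor. Genes with a miR-25 match differed from other genes by -0.23 with miR-25 mimic and by -0.24 in the double library, but by 0.00031 in the triple-labelled library, whose label names miR-25. The let-7 values rested on 703 genes of 6987 and the miR-25 values on 637. Over all kept cells the let-7 difference was smaller throughout, at 0.032 with let-7 antagomiR, 0.067 in the double, 0.013 in the triple-labelled and 0.041 in the miR-124-labelled library. The miR-25 difference there was -0.18 with miR-25 mimic and in the double library and -0.023 in the triple-labelled library. These values go against part of the labels of the miR-124-labelled and triple-labelled libraries. They were taken over pooled cells and not within clusters, and the part of cluster mix in them was not tested. The word "labelled" stays in the names of these 2 libraries throughout, and the comparisons below cannot be made without them.

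The published targets were read in 2 comparisons that share no library, each of a library labelled with miR-124 against the library whose label lacks only that RNA. In Müller-like cells 21 of the 30 members reached 20 CPM in at least 1 library. Ctdsp1, Ctdspl, Ezh2, Elk3 and Mapk14 did so with at least 1 other library below that level, so the counts over these 21 are descriptions. A call means a ratio of CPM + 5 of at least 1.5-fold. Between the miR-124-labelled library and the control, Ctdsp1, Lamc1, Vamp3, Tln1 and Arpc1b were at least 1.5-fold lower, 5 of 21 members, where 6.91% of all 7102 genes were. Ezh2 was the 1 member at least 1.5-fold higher, where 8.05% of all genes were. The median log2 ratio was -0.25 over the members and 0.049 over all genes. Between the triple-labelled and double libraries, Lamc1, Vamp3, Cd164 and Arpc1b were lower, 4 of 21, where 13% of all genes were lower. No member was higher, where 18.2% of all genes were. The medians here were -0.23 and 0.072. Lamc1, Vamp3 and Arpc1b were thus lower past 1.5-fold in both comparisons. Of the 21 members, 13 had log2 ratios below 0 in both, 4 had them above 0 in both and 4 had opposite signs.

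**Figure D1:**
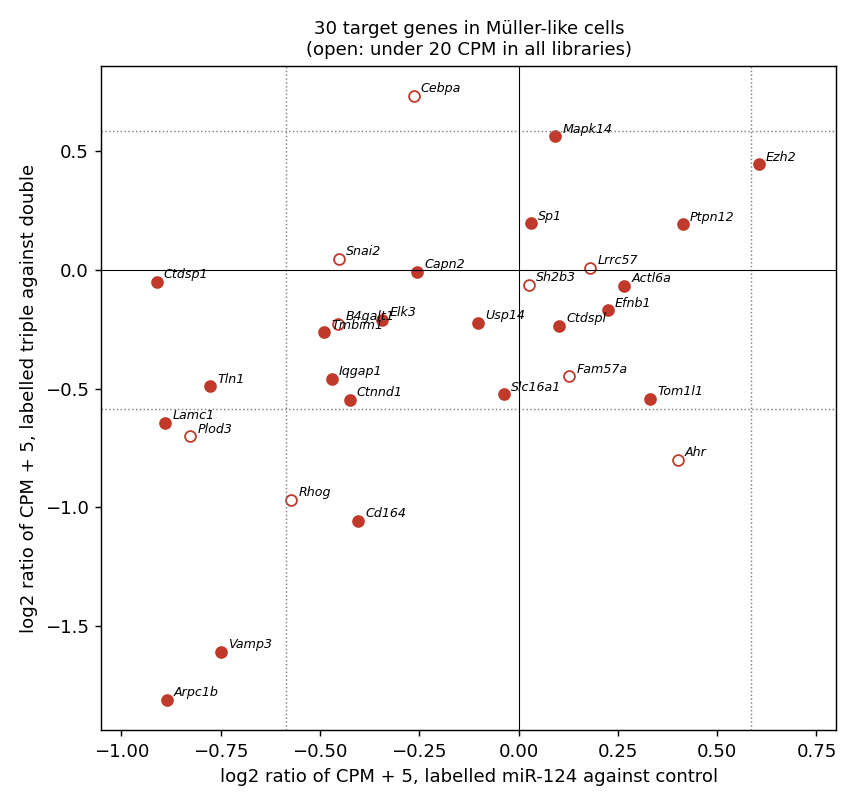
Log2 ratios of CPM + 5 of the 30 published targets in Müller-like cells, with the miR-124-labelled library against control on the x axis and the triple-labelled library against the double library on the y axis. Dotted lines mark 1.5-fold and open circles are members under 20 CPM in all libraries. Arpc1b and Vamp3 lie farthest down the y axis, at -1.81 and -1.61, while Ctdsp1 lies at -0.91 on the x axis but at -0.05 on the y axis.

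Counting libraries in place of ratios, 11 of 21 members had both libraries labelled with miR-124 below each of the other 4, where 20.9% of all genes did. These were Ctdsp1, Lamc1, Iqgap1, Vamp3, Usp14, Cd164, Slc16a1, Tln1, Arpc1b, Tmbim1 and Ctnnd1. Ptpn12 and Mapk14, 2 of 21, had both above the other 4, where 29.2% of all genes did. Within the Lcn2-led cluster 2 of 20 members had both below and 1 had both above, where 9.1% and 10.7% of all genes did. Within the Grem1-led cluster these were 2 and 1 of 22 members, where 10.3% and 9.32% of all genes did.

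The members of adhesion and the cytoskeleton had medians below that of all genes in both comparisons over all Müller-like cells. Within clusters this held in the first comparison alone. The medians were -0.18 and 0.069 in the Lcn2-led cluster, where all genes had 0.029 and 0.021. In the Grem1-led cluster they were -0.091 and 0.036, where all genes had 0.00092 and -0.0044. Over all Müller-like cells 8 of these members passed the filter. At least 1.5-fold lower were 3 in the first comparison, where 6.91% of all genes were, and 2 in the second, where 13% were. None was higher past 1.5-fold, where 8.05% and 18.2% of all genes were. The median log2 ratios were -0.45 and -0.47. Arpc1b (ENSMUSG00000029622, chr5:145114215-145130705 in GRCm38) encodes a subunit of the Arp2/3 complex, which nucleates branched actin. Arpc1b stood at 281 CPM in the control, 254 with the let-7 antagomiR, 344 with the miR-25 mimic, 370.1 in the double library, 150.0 in the miR-124-labelled library and 102 in the triple-labelled library. Both labelled libraries lay below the other 4 without overlap of their counting intervals. The CPM ratio was 0.533 (95% interval 0.483 to 0.587) in the first comparison and 0.275 (0.255 to 0.297) in the second.

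Lamc1 (ENSMUSG00000026478, chr1:153218922-153332786), the laminin gamma chain of basement membranes, stood at 58.8, 72.4, 63.3 and 54.9 CPM in the control, let-7 antagomiR, miR-25 and double libraries. In the miR-124-labelled and triple-labelled libraries Lamc1 stood at 29.4 and 33.3 CPM, the lowest levels of the 6. The ratios were 0.500 (0.400 to 0.623) and 0.607 (0.517 to 0.712). Its partner chain Lamb1, not itself on the list, had log2 ratios of -0.92 and -0.66.

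Tln1, which encodes talin, the link from integrins to actin, stood at 232, 214, 257 and 179 CPM in the 4 libraries without miR-124 in the label, in the order above, and at 134 and 126 CPM in the 2 labelled with it. Tln1 passed 1.5-fold in the first comparison alone, with log2 ratios of -0.78 and -0.49. The double library was the lowest of the 4.

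Iqgap1, a scaffold that binds actin and small GTPases, stood at 117, 120.0, 128 and 123 CPM in those 4 libraries and at 83.2 and 88.5 CPM in the labelled 2. Ctnnd1, the p120 catenin that stabilises cadherins and a member with a miR-25 match, stood at 134, 128, 128 and 138 CPM and at 98.6 and 93.0 CPM. The 4 libraries lay close together for both genes, and the labelled 2 lay below them. Neither passed 1.5-fold, with log2 ratios of -0.47 and -0.46 for Iqgap1 and -0.43 and -0.55 for Ctnnd1. With miR-25 mimic, Ctnnd1 had a log2 ratio to control of -0.06.

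Ptpn12, a phosphatase of focal adhesion proteins, went the other way, at 30.2, 32.1, 34.2 and 29.9 CPM in the 4 libraries and 41.9 and 34.9 CPM in the labelled 2, with log2 ratios of 0.41 and 0.19. Efnb1, an ephrin ligand, had log2 ratios of 0.22 and -0.17, and Capn2, a calcium-dependent protease, of -0.25 and -0.01. Rhog, a small GTPase of membrane ruffling, did not pass the filter. Its 5.83 and 5.99 CPM in the labelled 2 compare with 11.1 to 16.5 CPM in the other 4.

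**Figure D2:**
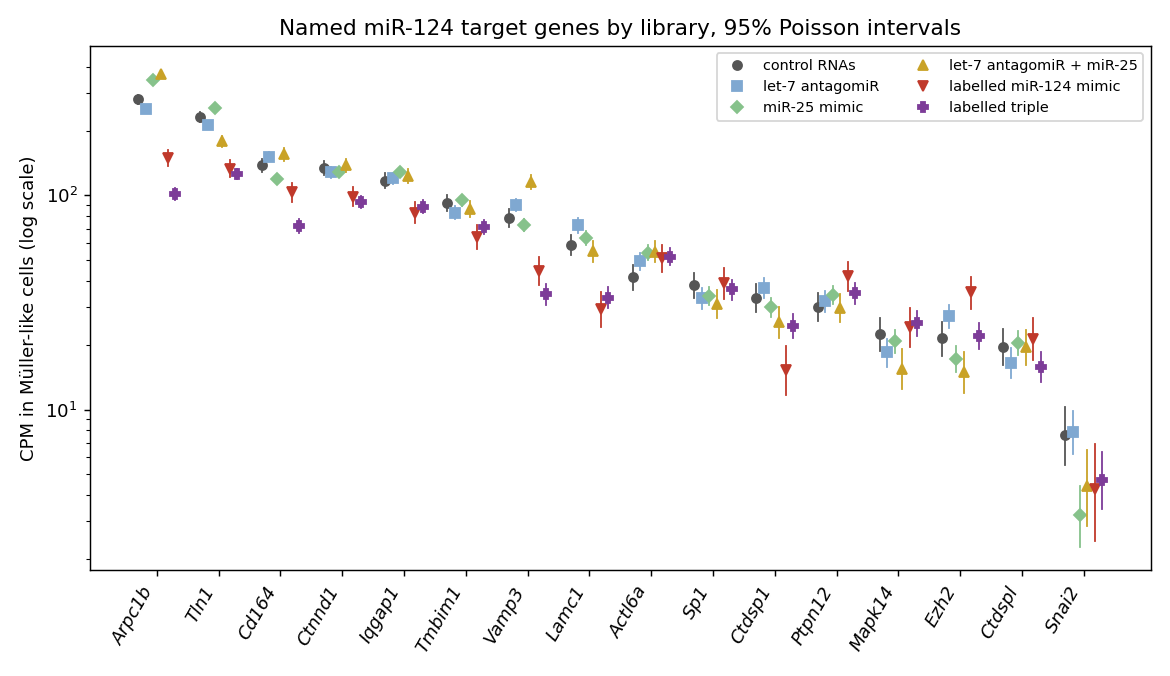
Levels of the named published targets in Müller-like cells, in CPM on a log axis, by library, with exact 95% Poisson intervals as bars. For Arpc1b, Vamp3, Lamc1, Tln1, Iqgap1, Ctnnd1, Cd164 and Tmbim1 the miR-124-labelled and triple-labelled libraries are the lowest 2 of the 6.

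Among members of membrane traffic, the cell surface and processing enzymes, 5 passed the filter in Müller-like cells. At least 1.5-fold lower were 1 in the first comparison, where 6.91% of all genes were, and 2 in the second, where 13% were. None was higher, where 8.05% and 18.2% of all genes were. The medians were -0.40 and -0.54. In the Lcn2-led cluster they were -0.089 and -0.48, and in the Grem1-led cluster -0.12 and -0.30. Vamp3 (ENSMUSG00000028955, chr4:151047300-151057963) encodes cellubrevin, a vesicle SNARE of recycling endosomes. Vamp3 stood at 78.2 CPM in the control, 90.1 with the let-7 antagomiR, 72.7 with the miR-25 mimic and 115 in the double library, and at 44.5 and 34.5 CPM in the miR-124-labelled and triple-labelled libraries. The 2 labelled libraries were the lowest, and the double library was the highest. The ratios were 0.569 (0.473 to 0.682) and 0.299 (0.261 to 0.342).

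Cd164, a sialomucin of endosomes and the cell surface, stood at 138, 152, 119 and 155 CPM in the 4 libraries without miR-124 in the label and at 103 and 72.0 CPM in the labelled 2. The ratio was 0.747 (0.660 to 0.845) in the first comparison, short of 1.5-fold, and 0.464 (0.419 to 0.513) in the second. Tmbim1, a membrane protein of lysosomes and endosomes, stood at 92.1, 82.9, 94.85 and 86.4 CPM against 64.1 and 71.2 CPM, with log2 ratios of -0.49 and -0.26.

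Slc16a1, the lactate and pyruvate carrier, had log2 ratios of -0.04 and -0.52, and Tom1l1, an endosomal adaptor with a let-7 match, of 0.33 and -0.54. Tom1l1 was lowest in the control, at 21.1 CPM, with the triple-labelled library close to it at 21.8 CPM. It was highest in the double library, at 34.1 CPM. Plod3, a collagen lysyl hydroxylase, and B4galt1, a galactosyltransferase, did not pass the filter. Plod3 stood at 7.15 and 7.6 CPM in the labelled 2 and at 14.7 to 17.8 CPM in the other 4, and B4galt1 at 7.68 and 7.39 CPM against 9.5 to 13.8 CPM.

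The regulators of transcription and chromatin did not share a direction. Of the 6 that passed the filter, 1 was lower and 1 higher past 1.5-fold in the first comparison, where 6.91% and 8.05% of all genes were. In the second none passed, where 13% of all genes were lower and 18.2% higher. The medians were 0.067 and -0.059. Ctdsp1 (ENSMUSG00000026176, chr1:74391509-74397285) encodes a phosphatase that REST brings to neuronal genes, and is among the best known targets of miR-124. Ctdsp1 stood at 33.3 CPM in the control, 36.9 with the let-7 antagomiR, 29.97 with the miR-25 mimic and 25.7 in the double library. It stood at 15.4 CPM in the miR-124-labelled library and at 24.6 CPM in the triple-labelled library. The first ratio was 0.462 (0.337 to 0.623). The second was 0.959 (0.776 to 1.19), an interval that holds no 1.5-fold difference in either direction. Its relative Ctdspl, a phosphatase of the same family, stood at 19.7, 16.5, 20.5 and 19.5 CPM and at 21.5 and 15.8 CPM in the labelled 2, with log2 ratios of 0.10 and -0.23. The labelled 2 were thus the highest and the lowest of the 6 for Ctdspl. The other paralog, Ctdsp2, had log2 ratios of -0.17 and 0.19.

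Ezh2 (ENSMUSG00000029687, chr6:47530139-47595341), the methyltransferase of the Polycomb repressive complex PRC2 and a member with a let-7 match, stood at 21.5 CPM in the control, 27.2 with the let-7 antagomiR, 17.3 with the miR-25 mimic and 14.95 in the double library. In the miR-124-labelled and triple-labelled libraries it stood at 35.2 and 22.2 CPM. The library labelled miR-124 was the highest, and the triple-labelled library lay within the range of the others. The ratios were 1.64 (1.27 to 2.12) and 1.48 (1.15 to 1.93). Against control, Ezh2 had a ratio interval of 1.02 to 1.59 with let-7 antagomiR and of 0.521 to 0.928 in the double library, although both labels name the let-7 antagomiR. Its paralog Ezh1 had log2 ratios of -0.07 and 0.64.

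Actl6a, a subunit of the BAF chromatin remodeller that neurons exchange for Actl6b, stood at 41.5, 49.2, 54.1 and 54.5 CPM and at 50.9 and 51.8 CPM in the labelled 2. The control was the lowest and the other 5 lay close together, with log2 ratios of 0.27 and -0.07. Actl6b had 0 to 4 UMIs per library in Müller-like cells, which is too few to compare.

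Sp1, a general transcription factor, stood at 38.0, 33.2, 33.9 and 31.1 CPM and at 39.0 and 36.4 CPM, with log2 ratios of 0.03 and 0.20, so its libraries did not separate. Elk3, an ETS factor, had log2 ratios of -0.34 and -0.21. Snai2, a repressor of epithelial genes, did not pass the filter and stood at 7.64, 7.87, 3.22 and 4.40 CPM in the 4 libraries and 4.24 and 4.71 CPM in the labelled 2. The miR-25 mimic library was thus its lowest. Cebpa and Ahr, a myeloid factor and a ligand-activated factor, stood under 10 CPM in every library.

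Of the signalling and other members, Mapk14, the p38 kinase, stood at 22.6, 18.5, 20.8 and 15.5 CPM and at 24.4 and 25.3 CPM in the labelled 2, with log2 ratios of 0.09 and 0.56. Usp14, a deubiquitinase of the proteasome, had log2 ratios of -0.10 and -0.22. Usp14 spanned only 50.4 to 59.6 CPM over the 6 libraries. Sh2b3, Lrrc57 and Fam57a did not pass the filter, and Lrrc57 was the highest of them, at 14.4 to 18.8 CPM.

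The same members were also read against control in the libraries whose labels lack miR-124. With let-7 antagomiR, miR-25 mimic and the double library, 0 of 21 members passed 1.5-fold in either direction, where 0.648%, 0.986% and 5% of all genes were lower and 1.08%, 1.45% and 3.18% higher. Such shares leave few calls for any 21 genes, so these counts say little about the members. Single members differed within 1.5-fold, such as Vamp3, higher in the double library, and Ezh2, lower there. The medians were -0.020, 0.041 and -0.0074. The library labelled triple combination against the same control had Lamc1, Vamp3, Cd164, Tln1 and Arpc1b lower, 5 of 21 members, where 8.65% of all genes were lower, and none higher, where 11% were. These comparisons share the control library.

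Because the Car14-led cluster was nearly confined to the 2 labelled libraries, the members were also read within clusters. Inside the miR-124-labelled library, Arpc1b stood at 49.3 CPM in the Car14-led cluster, 216 CPM in the Lcn2-led and 339 CPM in the Grem1-led cluster, and inside the triple-labelled library at 44.2, 225 and 276 CPM. Tln1 stood at 81.1, 193 and 207 CPM and at 91.5, 209 and 220.2 CPM in the same order. Lamc1 stood at 17.5, 32.4 and 56.6 CPM and at 21.5, 51.1 and 75.6 CPM. In both libraries each of these genes was lowest in the Car14-led cluster, where its level was set with cells of the same treatment. Vamp3 was likewise lowest in the Car14-led cluster, at 32.2, 62.4 and 57.8 CPM and at 24.5, 52.7 and 67.5 CPM. Clusters were made from the same counts, so that these values describe the clusters and test nothing.

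**Figure D3:**
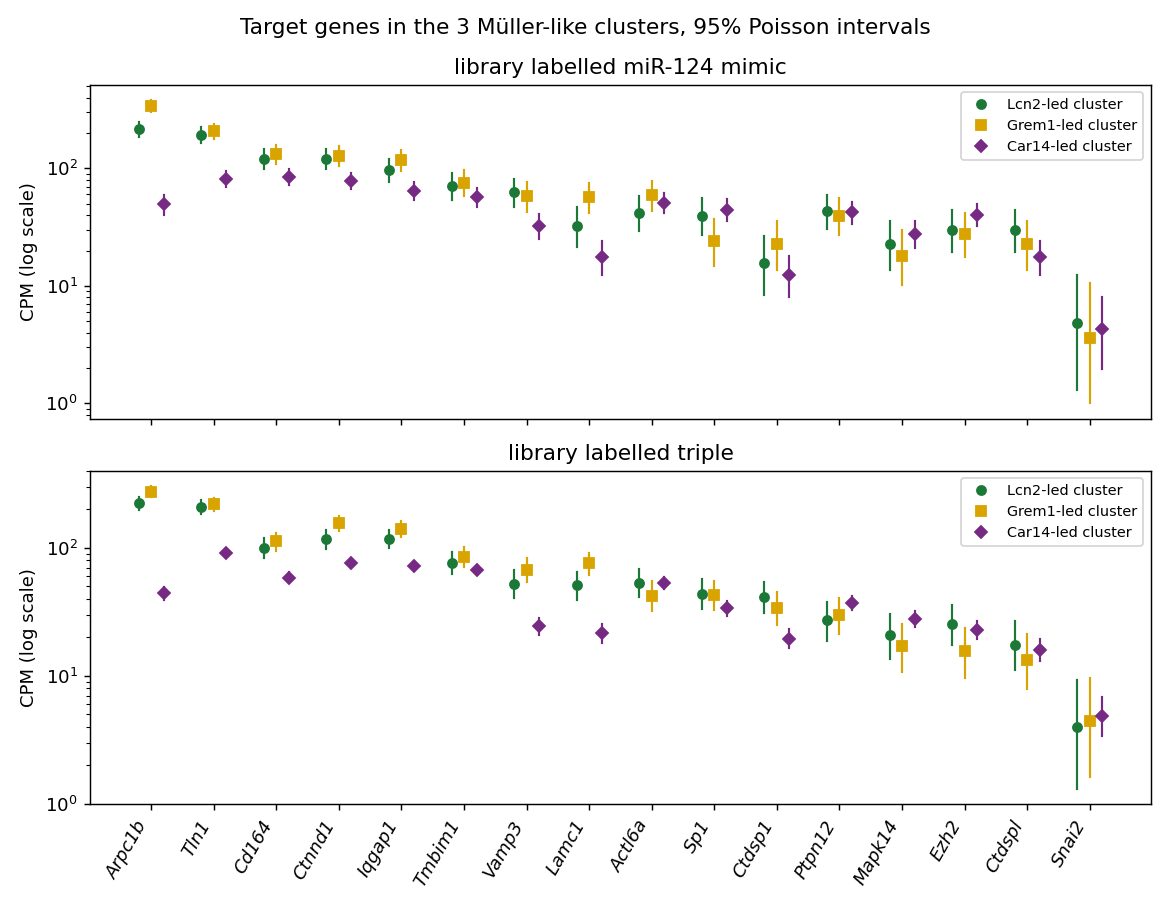
Levels of the named published targets in the Lcn2-led, Grem1-led and Car14-led clusters of Müller-like cells, in CPM on a log axis, in the libraries labelled miR-124 (top) and triple combination (bottom), with exact 95% Poisson intervals. Arpc1b in the Car14-led cluster stands at 49.3 and 44.2 CPM, below 216 CPM or more in the other clusters, while Actl6a and Ptpn12 show no such gap.

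Compared between libraries within a cluster, most of the lower calls were not seen. In the Lcn2-led cluster Ctdsp1 was the 1 of 20 members at least 1.5-fold lower in the miR-124-labelled library than in the control, where 4.52% of all genes were, and none was higher, where 4.45% were. Between the triple-labelled and double libraries, Vamp3 was lower and Ezh2 higher there, where 7.69% and 9.86% of all genes were. In the Grem1-led cluster 0 of 22 members passed in the first comparison, where 3.83% of all genes were lower and 3.14% higher. In the second, Vamp3 and Efnb1 were lower, where 8.35% were, and none was higher, where 9.22% were. The member medians were -0.061 and -0.093 in the Lcn2-led cluster and -0.038 and 0.0087 in the Grem1-led cluster.

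Arpc1b had log2 ratios of -0.20 and -0.41 in the Lcn2-led and 0.15 and -0.51 in the Grem1-led cluster, against -0.89 and -1.81 over all Müller-like cells. Lamc1 had -0.49 and 0.23, and -0.23 and 0.33, so that its second comparison changed sign in both clusters. Tln1 changed sign in the second comparison likewise, at 0.24 and 0.28. Vamp3 kept ratios below 0 in each, at -0.29 and -0.96, and at -0.42 and -0.77. Both labelled libraries lay below the other 4 for Vamp3 in the Lcn2-led cluster, at 62.4 and 52.7 CPM against 72.9 to 108 CPM, and in the Grem1-led cluster, at 57.8 and 67.5 CPM against 72.3 to 119 CPM. Ctdsp1 had -0.89 and 0.44, and -0.45 and 0.42, lower in the first comparison and not in the second.

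The cultures held other cell types, in which the same RNAs were read. Astrocyte-like cells, 169 to 300 per library, gave the largest count of lower members outside Müller-like cells. In them the 9 pericyte or smooth muscle markers summed to 3088 and 1969 CPM in the miR-124-labelled and triple-labelled libraries against 3232 to 6138 CPM in the other 4, with Kcnj8 at 0 in all 6. The 6 astrocyte markers summed to 2421 and 4493 CPM against 1192 to 2271 CPM, with Igsf1 at 0 in all 6. The part of these markers in the result was not tested. Of the members named next, Ctdsp1, Ctdspl, Plod3, Rhog and Elk3 reached 20 CPM with at least 1 other library below that level. Their lowest levels were 16.9, 4.97, 12.9, 9.94 and 11.9 CPM, so the counts over the 22 that passed are descriptions. In the miR-124-labelled library Ctdsp1, Ctdspl, Lamc1, Vamp3, Plod3 and Elk3 were at least 1.5-fold lower than in the control, 6 of 22 members, where 6.01% of all genes were. None was higher, where 8.61% of genes were. In the second comparison Lamc1, Vamp3, Cd164 and Ctnnd1 were lower, 4 of 22, where 8.25% of genes were, and Ctdspl was higher, where 18.7% were. The medians were -0.42 and -0.10, against 0.063 and 0.12 over all genes. Both labelled libraries lay below the other 4 for 9 of 22 members, where 9.2% of all genes did so. These were Ctdsp1, Lamc1, Vamp3, Cd164, Plod3, Rhog, Arpc1b, Tmbim1 and Elk3. None lay above the other 4, where 18.1% of genes did.

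In astrocyte-like cells Lamc1 stood at 72.2 CPM in the control, 85.4 with the let-7 antagomiR, 81.0 with the miR-25 mimic and 80.5 in the double library, and at 40.7 and 34.1 CPM in the miR-124-labelled and triple-labelled libraries. Vamp3 stood at 103, 119, 111 and 144 CPM and at 66.6 and 59.0 CPM. Ctdsp1 stood at 39.7, 38.0, 36.8 and 27.2 CPM and at 16.9 and 20.8 CPM. For each of these genes the labelled 2 were the lowest of the 6. Arpc1b, so different over Müller-like cells, stood at 298 and 346 CPM against 362 to 454 CPM.

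Fibroblast-like cells, 766 to 2171 per library, gave fewer calls. They fell into 3 clusters, whose mix differed: a cluster with Penk among its leading genes held 505 of 1238 cells of the miR-124-labelled and 426 of 908 of the triple-labelled library, but 253 of 2171 of the control and 113 of 766 of the double library. The part of that mix in the values was not tested. Ctdsp1 was the 1 of 23 members lower in the miR-124-labelled library, where 1.24% of genes were, and none was higher, where 2.02% were. Sh2b3, an adaptor that damps cytokine signalling, was the 1 lower in the second comparison, where 1.76% were, and none was higher, where 3.95% were. Ctdsp1 stood there at 27.9, 26.8, 22.3 and 25.7 CPM in the 4 libraries without miR-124 in the label, at 14.6 CPM in the miR-124-labelled library and at 30.3 CPM in the triple-labelled library, the highest of the 6. Both labelled libraries lay below the other 4 for 5 of 23 members, Sp1, Snai2, B4galt1, Ctnnd1 and Elk3, where 8.99% of genes did, and above for Plod3, where 8.88% did.

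In pericyte-like cells 0 of 23 members passed in the first comparison, where 3.02% of genes were lower and 1.77% higher. Cd164 and Sh2b3 were lower in the second, where 6.17% were, and none was higher, where 7.28% were. Both labelled libraries lay below the other 4 for 2 of 23 members, where 7.14% of genes did, and above for 2, where 5.36% did. In microglia-like cells, 70 to 122 per library, 16.3% of genes were at least 1.5-fold lower and 6.72% higher in the first comparison and 12.8% and 19.2% in the second. There Ctdsp1 was lower and Ezh2 and Ptpn12 higher in the first comparison, of 21 members, and Ezh2 and Actl6a were lower and Vamp3, Capn2 and Elk3 higher in the second. In microglia-like cells both labelled libraries lay below the other 4 for 1 of 21 members, where 7.52% of genes did. They lay above for 3, where 4.33% did.

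**Figure D4:**
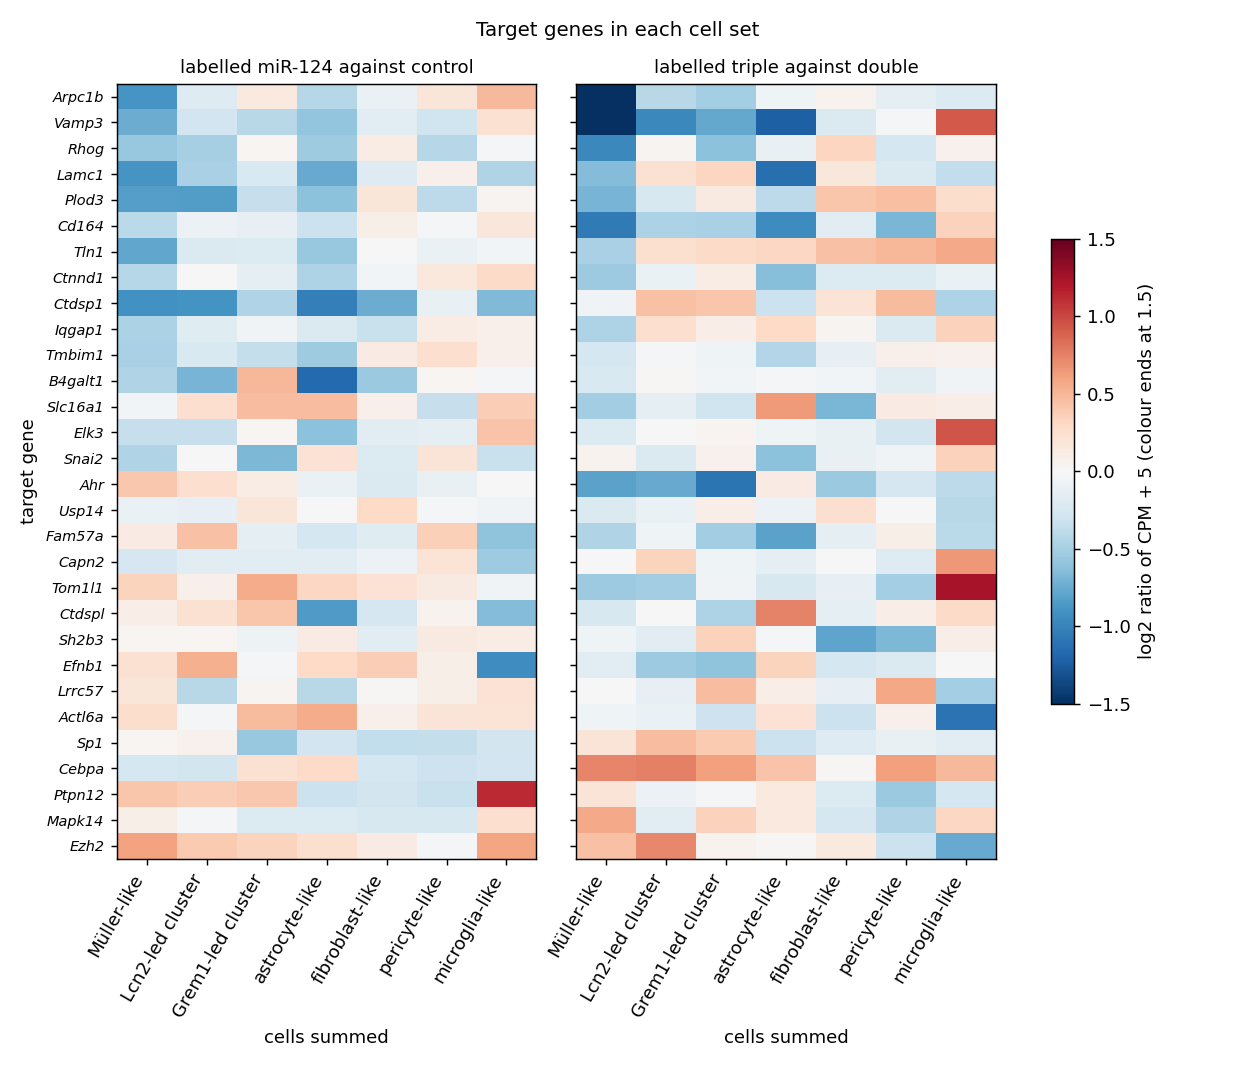
Log2 ratios of CPM + 5 of the 30 published targets (rows) in each set of cells (columns), for the miR-124-labelled library against control (left) and the triple-labelled library against the double library (right). Blue is lower, red is higher and the colour ends at 1.5. Over all Müller-like cells Ctdsp1, Lamc1 and Arpc1b are bluest on the left and Arpc1b and Vamp3 on the right, and the columns of the Lcn2-led and Grem1-led clusters and of fibroblast-like cells are paler.

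Across the 6 disjoint sets of cells that gave comparisons (the Lcn2-led and Grem1-led clusters and the 4 other classes), Ctdsp1 was lowest of the 6 libraries in the miR-124-labelled library in 5, all but pericyte-like cells, and had a log2 ratio to control below 0 in 6. In the second comparison it was below 0 in 2. Vamp3 had both labelled libraries below the other 4 in 4 of these sets and log2 ratios below 0 in 5 in each comparison. Microglia-like cells were the exception for Vamp3 in both. Cd164 was lowest in the triple-labelled library in 5 sets and in the miR-124-labelled library in 0. Tln1 had log2 ratios below 0 in all 6 in the first comparison and in 0 in the second. These sets share their libraries and are not replicates. The ranks and signs use no counting interval, and the lowest Ctdsp1 level in microglia-like cells was only 7.22 CPM.

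**Figure D5:**
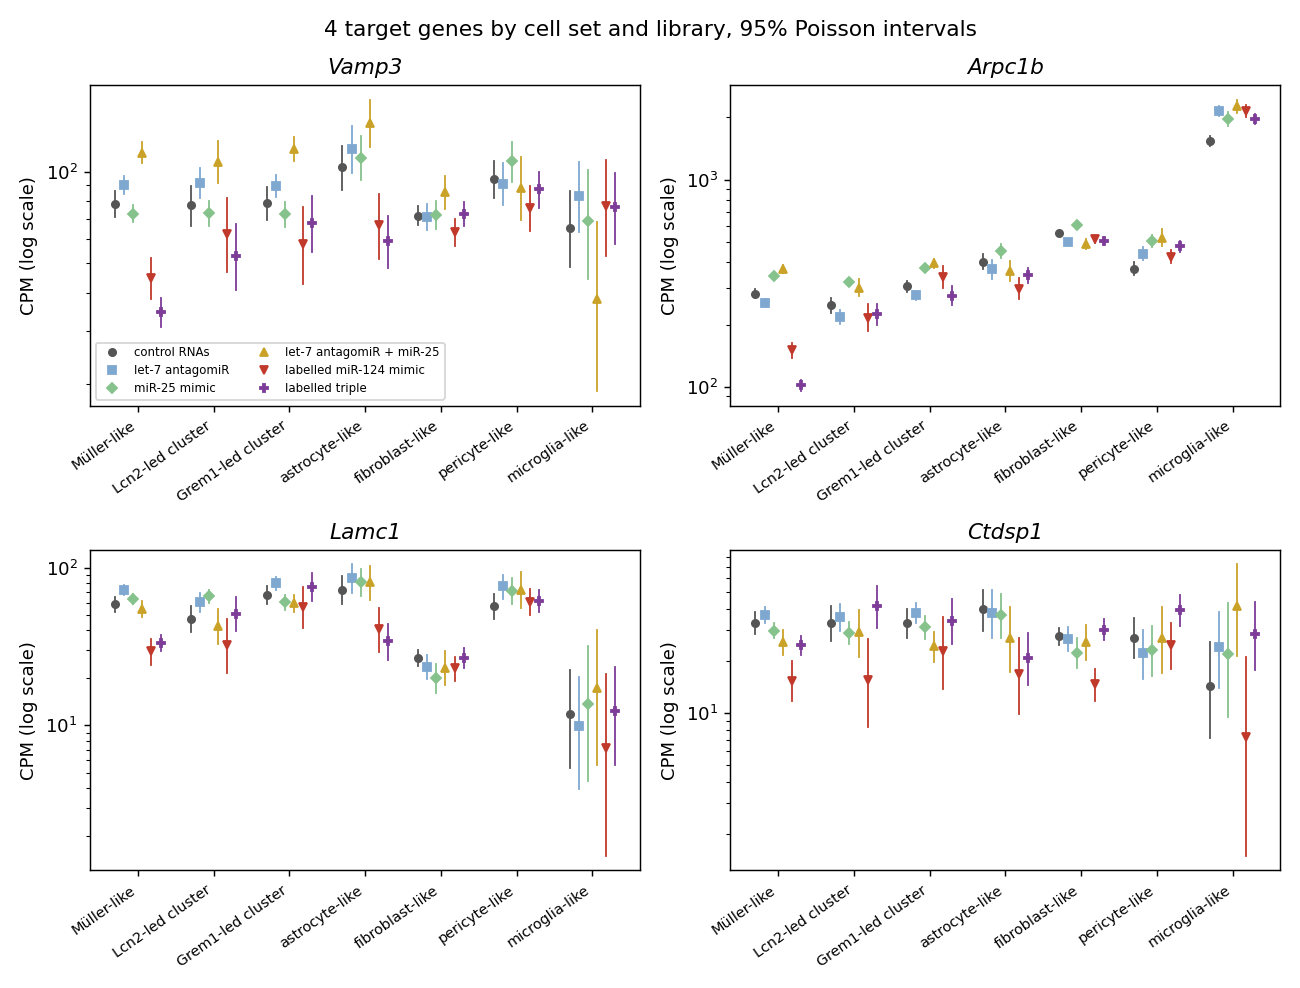
Levels of Vamp3, Arpc1b, Lamc1 and Ctdsp1 in CPM on a log axis, by set of cells and library, with exact 95% Poisson intervals. The library labelled miR-124 is the lowest for Ctdsp1 in every set shown but pericyte-like cells, while for Arpc1b the labelled libraries lie farthest below the others over all Müller-like cells.

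Levels across cell types show which cells of the culture held most of each transcript per UMI summed. Slc16a1 was highest in Müller-like cells in all 6 libraries, at 28.8 to 43.6 CPM against 2.23 to 13.9 CPM in fibroblast-, pericyte-, astrocyte- and microglia-like cells. Arpc1b was highest in microglia-like cells in all 6, at 1539.6 to 2259.6 CPM, as were Rhog, at 66.3 to 85.1 CPM, and Cebpa, at 27.5 to 50.4 CPM. Tln1, Capn2, Ctnnd1, Plod3 and Fam57a were highest in pericyte-like cells in all 6 libraries, Tln1 at 318 to 458 CPM and Ctnnd1 at 171 to 257 CPM. Ahr was highest in fibroblast-like cells in all 6, at 5.10 to 11.1 CPM. Tom1l1 was highest in astrocyte-like cells in 5. Ctdsp1 and Actl6a had no class that was highest in more than 3 libraries, and the ranges of their classes overlapped.

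Genes around the members were read in Müller-like cells in the same way, from lists written for this purpose. Those named as past 1.5-fold and not by the rule on named genes were chosen after their values were seen. Of 26 measured paralogs of members, Lamb1, Rhoa and Tln2 were lower in the first comparison, 3 in all, and none was higher, where 6.91% of all genes were lower and 8.05% higher. In the second, where 13% of all genes were lower and 18.2% higher, 5 were lower (Lamb1, Plod2, Rhoc, Arpc1a and Tmbim4) and 3 higher (Vamp2, Ezh1 and Tom1l2), and the medians were -0.18 and -0.058. Vamp2, the vesicle SNARE of synapses, had a log2 ratio of 1.49 in the second comparison, where Vamp3 had -1.61. B4galt5 had log2 ratios of 0.08 and 0.09.

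Of the actin and adhesion genes beside the members, the Arp2/3 subunits had lower calls in the second comparison alone. Of 8 of them other than Arpc1b none passed in the first comparison, where 6.91% of all genes were lower and 8.05% higher. In the second, Arpc1a, Arpc2 and Arpc4 were lower, 3 of 8, where 13% of all genes were. None was higher there, where 18.2% were. The medians were -0.098 and -0.54. Arpc1a, the paralog of Arpc1b, had log2 ratios of -0.12 and -0.59, where Arpc1b had -0.89 and -1.81, and Arpc3 had -0.31 and -0.37. The medians of these subunits were 0.017 and -0.22 in the Lcn2-led cluster and 0.12 and -0.22 in the Grem1-led cluster. Of 16 integrin adhesion genes, 5 were lower in the first comparison (Lamb1, Itgb1, Zyx, Actn1 and Flna), where 6.91% of all genes were. None was higher, where 8.05% were. In the second 7 were lower, where 13% of all genes were, and Itgav was higher, where 18.2% were. The medians were -0.36 and -0.50. Within the Lcn2-led cluster the medians of these integrin adhesion genes were -0.20 and 0.016, and within the Grem1-led cluster -0.28 and -0.039. Itgb1, the common integrin beta chain and a reported miR-124 target, stood at 545, 569, 343 and 345 CPM in the control, let-7 antagomiR, miR-25 and double libraries and at 220.2 and 145 CPM in the labelled 2. The 2 libraries whose labels name miR-25 without miR-124 were thus also low for Itgb1.

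The chromatin complexes around Actl6a, Ezh2 and Ctdsp1 had medians above that of all genes over all Müller-like cells, but not throughout within clusters. Of 15 BAF genes none was lower, where 6.91% and 13% of all genes were in the 2 comparisons. Smarcc1 was higher in the first comparison, where 8.05% of all genes were, and Smarca2, Smarcc2, Smarcd1 and Arid1b, 4 of 15, in the second, where 18.2% were. The BAF medians were 0.26 and 0.23. Smarca2, an ATPase of the complex, had log2 ratios of 0.56 and 1.25, and Bcl7c of -0.58 and -0.50. Of 8 PRC2 genes none was lower, where 6.91% and 13% of all genes were. Jarid2 was higher in both comparisons and Ezh1 in the second, where 8.05% and 18.2% of all genes were. The PRC2 medians were 0.13 and 0.13. Jarid2, a DNA-binding partner of the complex, stood at 40.5 and 45.9 CPM in the labelled libraries against 16.7 to 21.6 CPM in the other 4. The 10 measured genes of the REST corepressor complex had medians of 0.12 and 0.28. By the log2 ratio nearer to 0 of the 2 comparisons, Sin3b was the lowest of them, at -0.47 and -0.80, and Kdm1a, a histone demethylase, the highest, at 0.52 and 0.57. Within the Lcn2-led cluster the medians were -0.010 and 0.060 for BAF, 0.16 and -0.030 for PRC2 and 0.045 and 0.012 for REST, where all genes had 0.029 and 0.021. Within the Grem1-led cluster they were 0.0097 and 0.20 for BAF, -0.16 and 0.021 for PRC2 and -0.18 and -0.095 for REST, where all genes had 0.00092 and -0.0044. The 3 complexes were thus not above all genes in each cluster and comparison.

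Of 10 other measured genes reported as miR-124 targets, Itgb1 was lower and Stat3 higher in the first comparison, where 6.91% and 8.05% of all genes were. In the second, Itgb1 and Vim were lower and Stat3, Sox9 and Zeb2 higher, where 13% and 18.2% of all genes were. The medians were -0.011 and 0.33. Ptbp1, a splicing repressor and a well-known target, had log2 ratios of -0.36 and 0.41, and Stat3 of 0.68 and 0.73. The medians of this list were 0.076 and 0.19 in the Lcn2-led cluster and 0.18 and 0.12 in the Grem1-led cluster.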

How the data were processed

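The single-cell system was 10x Genomics V2, per the labels' protocols. The deposited values are raw UMI counts for each gene and barcode. Cell Ranger 2, Seurat 2 and mm10 appear in the submitters' processing notes. The authors' own filters are not given in these sources. Barcodes needed 500 or more genes and 10% or less mitochondrial UMIs, and doublets called by Scrublet (scanpy 1.11.5) per library were removed. Scrublet marked 0.111%, 0.193% and 0.147% of cells in the control, miR-25 and triple-labelled libraries, and 1.38% to 3.06% in the others. Why it marked so few in the control, miR-25 and triple-labelled libraries was not examined, and doublets may remain there. The kept cells, 2721 to 5158 per library with median depths of 3472.5 to 5873.5 UMIs, were clustered together (2000 variable genes, 30 principal components, 15 neighbours, Leiden resolution 0.6) with no integration. A marker counted as high at 20 CPM or more and 2-fold over the median cluster. A cluster took the "-like" name of the class with the largest share of its markers high. It stayed unnamed with under 3 such markers, or where another class had more of them, or more markers among the 10 leading genes. The Lcn2-, Grem1- and Car14-led clusters had 12, 9 and 16 of 20 Müller glia markers, and 3 clusters stayed unnamed.

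Counts were summed per library and class and scaled to CPM. Log2 ratios were taken of CPM + 5, which understates changes of low genes, over genes reaching 20 CPM in 1 or more of 6 libraries. A member could pass through libraries where it was high, so counts of members are descriptions in every set of cells. Poisson and conditional ratio intervals are exact, at 95%. UMI counts are of the 3′ end, so isoforms were not separated, and paralogs could share reads. The label check averaged, over bins of UTR length, the difference in mean log2 ratio between genes with and without a match. No test of treatments was made. The members and lists were chosen with earlier results of these data known. Genes are named by rule: the 8 lowest and 4 highest members by the log2 ratio nearer to 0 of the 2 comparisons, 8 members whatever their values, and the lowest and highest gene of each list with 6 others. The ratio calculation was tested on simulated data. Sites of miR-124 were not searched. Some genes of the surrounding lists are not reported here.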

Additional observations from a re-analysis of the deposited data

How the results depend on the processing

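The counts of members past 1.5-fold and their medians in Müller-like cells were recomputed under 11 alternatives, of which the one that gives the Lcn2-led and Grem1-led clusters equal weight was chosen after seeing the data. In the miR-124-labelled library against control, the 5 lower members became 2 over all kept cells, 1 at the class shares of the control library and 1 with the clusters at equal weight. The 1 higher member became 0 in those settings, with at least 50 CPM, at clustering resolution 0.3 and with median-of-ratios scaling, and 2 with at most 5% mitochondrial UMIs, which leaves 122 to 834 Müller-like cells per library. In the triple-labelled against the double library, the 4 lower members became 1 at the class shares, 1 with the clusters at equal weight, 7 with median-of-ratios scaling and 7 with no filter on low values. The 0 higher members became 1 with a pseudocount of 1 CPM, with no filter and without the 4% highest doublet scores, and 2 with at most 5% mitochondrial UMIs. That median moved from -0.23 to -0.49 with at least 50 CPM and changed sign to 0.00089 with the clusters at equal weight. The median of the first comparison stayed below 0, between -0.47 and -0.080. Of 352 values of single members, 271 stayed close, 77 moved and 4 that had been past 1.5-fold changed sign. With at most 5% mitochondrial UMIs these were Lamc1 and Ezh2 in the first comparison, at 0.16 and -0.19. With the clusters at equal weight they were Arpc1b in the first, at 0.0024, and Lamc1 in the second, at 0.29. Sign changes of values short of 1.5-fold were counted as close or moved. An example is Tln1 in the second comparison, which went from -0.49 to 0.13 over all kept cells. Beyond the cluster mix, whose values are given, the cause was not tested. No paired analysis was possible because each treatment has 1 library. Depth limits members under 20 CPM, such as Fam57a, Ahr and Cebpa, and microglia-like cells, for which no difference can be read firmly. The planned search for miR-124 sites was not run.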
